A study of Homo sapiens with 4 samples.

Results

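The cytosolic HSP70 and HSP110 chaperone genes were examined in LNCaP cells treated with androgen in the presence or absence of CPI-455, an inhibitor of the KDM5 histone demethylases. The genes HSPA1A, HSPA1B, HSPA1L, HSPA2, HSPA4, HSPA4L, HSPA6, HSPA8, HSPA14 and HSPH1 make up this group, which is 10 of the 60675 genes in the count files. They were chosen from the annotated cytosolic HSP70 and HSP110 families with their change under CPI-455 already known. The fold changes of these 10 genes are therefore a description, given with a standard error and without a test. LNCaP is an androgen-responsive line from a lymph node metastasis of human prostate cancer. All 4 cultures received 1 nM R1881, a synthetic androgen, for 72 h, 2 with DMSO vehicle and 2 with 50 µM CPI-455. There was no culture without androgen and none at another dose or time.

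HSP70 proteins bind exposed hydrophobic stretches of unfolded proteins in a cycle driven by ATP, and release them for folding, for transport or for degradation. J-domain proteins deliver clients and stimulate the ATPase, and nucleotide exchange factors, among them the HSP110 proteins, reset the cycle. Under heat or proteotoxic stress the factor HSF1 binds heat shock elements, inverted repeats of GAA, and drives the inducible HSP70 genes, while the cognate gene HSPA8 is expressed in unstressed cells. In prostate cells HSP70 and HSP90 also hold the androgen receptor in a form able to bind hormone. The genes are described as inducible (HSPA1A, HSPA1B and HSPA6), as constitutive or tissue-restricted (HSPA8, HSPA2, HSPA1L and HSPA14) and as the HSP110 branch (HSPA4, HSPA4L and HSPH1).

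Promoter sequences are shown first because the inducible genes are known for their heat shock elements. RefSeq windows on GRCh38.p14, from 250 bases before to 50 bases after a start, were found for 9 of the 10 genes. Capitals mark each match to a pair of repeats, GAANNTTC or TTCNNGAA, or to a run of 3 repeats, GAANNTTCNNGAA or its reverse complement, on either strand. The windows shown are those of the 3 inducible genes and of the cognate gene HSPA8.
HSPA1A, chr6:31815293-31815592, forward strand: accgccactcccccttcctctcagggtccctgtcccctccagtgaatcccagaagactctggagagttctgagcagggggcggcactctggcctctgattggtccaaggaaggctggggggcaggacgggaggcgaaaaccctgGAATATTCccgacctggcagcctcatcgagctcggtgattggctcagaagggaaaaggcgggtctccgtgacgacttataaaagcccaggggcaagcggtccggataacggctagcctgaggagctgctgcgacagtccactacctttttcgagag
HSPA1B, chr6:31827488-31827787, forward strand: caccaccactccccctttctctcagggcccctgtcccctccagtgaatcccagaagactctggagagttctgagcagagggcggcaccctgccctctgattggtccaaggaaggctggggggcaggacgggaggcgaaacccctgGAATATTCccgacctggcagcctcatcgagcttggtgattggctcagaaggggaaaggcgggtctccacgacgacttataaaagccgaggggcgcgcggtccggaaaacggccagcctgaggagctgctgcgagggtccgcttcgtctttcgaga
HSPA6, chr1:161524290-161524589, forward strand: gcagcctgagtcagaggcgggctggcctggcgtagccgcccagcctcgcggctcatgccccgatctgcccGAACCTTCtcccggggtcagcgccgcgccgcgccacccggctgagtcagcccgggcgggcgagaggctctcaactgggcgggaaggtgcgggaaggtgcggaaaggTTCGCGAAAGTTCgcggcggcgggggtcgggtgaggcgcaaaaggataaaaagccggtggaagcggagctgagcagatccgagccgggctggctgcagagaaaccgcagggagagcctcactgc
HSPA8, chr11:123062087-123062386, reverse strand: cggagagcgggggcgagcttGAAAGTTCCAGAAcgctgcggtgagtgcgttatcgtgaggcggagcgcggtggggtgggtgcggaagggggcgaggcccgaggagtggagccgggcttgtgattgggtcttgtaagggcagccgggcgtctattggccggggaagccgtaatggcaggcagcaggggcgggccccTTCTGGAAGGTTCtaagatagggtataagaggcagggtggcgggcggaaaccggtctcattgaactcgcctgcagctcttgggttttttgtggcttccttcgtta
Each of the 4 windows held a pair of repeats, as did 13.5% of all 35116 promoter windows of the same length. The run of 3 repeats, which contains 2 overlapping pairs, was present in 0.49% of all windows. It was found at position -74 from the start in HSPA6, which also had a separate pair at -180, and at positions -230 and -55 in HSPA8. HSPA1A and HSPA1B each had a single pair of the same letters, at positions -106 and -105. Their windows were identical at 277 of 299 aligned bases (92.6%). HSPA1L and HSPA1A lie back to back on chromosome 6, and their windows overlap by 241 bases, so the pair at position -161 of HSPA1L is the one in HSPA1A. For HSPA2 and HSPA8 the RefSeq start lies inside the gene span of the count files, as it does for HSPA1A, HSPA1B, HSPA4 and some HSPA4L windows. For HSPA1L it lies outside that span. One of the 3 windows of HSPA4L had a pair at position -170. No pair was present in the windows of HSPA2, HSPA4 and HSPH1. These matches describe letters in the sequence and were not tested for binding.

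The authors deposited fragment counts per gene, which were scaled to normalized CPM (counts scaled to a common library size) with edgeR. The vehicle libraries held 19623553 and 20690819 counted fragments and the CPI-455 libraries 9522920 and 5401588. Of 17600 genes tested, 42.4% were called differentially expressed (edgeR's quasi-likelihood test, 2-fold or more and FDR under 0.05), 21.0% higher and 21.3% lower with CPI-455. The study calls its replicates biological, and the sources do not say how separately they were grown. The errors and p-values rest on the spread between these samples, moderated over all tested genes. Expression of all 8 luminal prostate markers examined was detected in every library, and 5 of the 8 were called lower. Their summed level was 847 to 918 CPM in the vehicle libraries, against 375 to 427 CPM under CPI-455. KLK2 went the other way, with 84.2 and 64.4 CPM against 108 and 111 CPM (log2 fold change 0.56, SE 0.15), and was not called. Of 3 stromal or mesenchymal markers, VIM and COL1A1 were called higher, both just past 2-fold (log2 fold changes 1.04, SE 0.12, and 1.00, SE 0.31). DCN had 0 counts in 3 libraries and 1 in the other. The summed level was 656 to 741 CPM in vehicle-treated cells and 1347 to 1528 CPM in cells given CPI-455. Almost all of it was VIM, with 651 and 737 CPM against 1337 and 1520 CPM. The basal markers KRT5, KRT14 and TP63 together stayed at or below 1.24 CPM, with KRT5 at 0 throughout, and the leukocyte gene PTPRC had 0 counts in all but 1 library. The nuclear RNA MALAT1 stood at 838 to 1060 CPM without inhibitor, compared with 53020 to 69490 CPM in the CPI-455 libraries. The part of these differences in the chaperone results was not tested.

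All 10 chaperone genes passed the filter on low counts, and in each of them the CPM values of the 2 groups did not overlap, as for 81.9% of all tested genes. HSPA1A passed only through its CPI-455 libraries. HSPA1A, HSPA1B, HSPA6 and HSPA8 stood more than 2-fold higher with CPI-455, HSPA2 more than 2-fold lower, and the other 5 changed by less. Of all tested genes, 21.0% were called higher and 21.3% lower. Since the contrast was known when the members were chosen, nothing is read from how many of them changed. Summed over the 10 genes, expression was 1062 and 1123 CPM in the vehicle libraries, against 8436 and 9252 CPM under CPI-455. These values are relative to the other genes of a library, and in bulk RNA fewer cells of a type and less RNA per cell cannot be told apart. The difference was carried by a few members, as the plot of CPM by library shows.

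**Figure D1:**
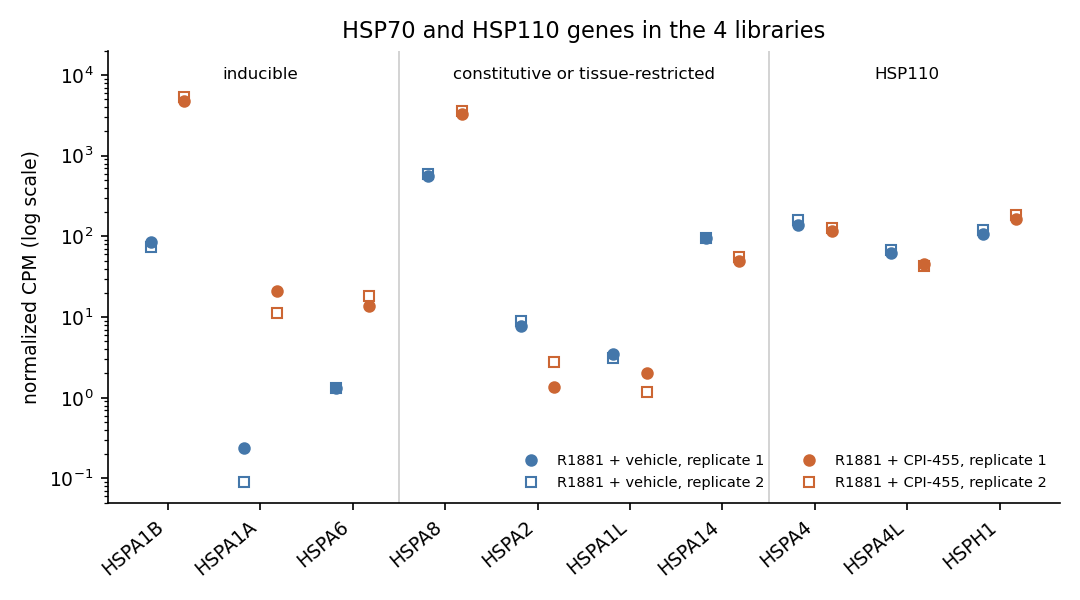
Normalized CPM on a log scale of the 10 HSP70 and HSP110 genes, with 1 point per library and no error bar, in the 2 vehicle and the 2 CPI-455 libraries. HSPA1B moved from 74.8 to 84.2 CPM with vehicle to 4771 to 5275 CPM with CPI-455, whereas HSPA4 stayed between 116 and 160 CPM in all libraries.

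HSPA1B encodes the main stress-inducible HSP70 together with its near-identical neighbor HSPA1A. It is a single-exon gene of chromosome 6 (GRCh38, 31827735 to 31830255, forward strand), within the major histocompatibility complex. Its counts were 1778 and 1634 in vehicle-treated cells and 42429 and 26604 in cells given CPI-455. This corresponds to 84.2 and 74.8 CPM with vehicle and to 4771 and 5275 CPM with CPI-455. Both inhibitor libraries lay far above both vehicle libraries, although they were the shallower ones. The log2 fold change of CPI-455 over vehicle was 5.98 (standard error, SE, 0.13, n = 2 per group), a 63.2-fold difference. Only 108 of the tested genes had a larger one.

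HSPA1A, on the forward strand of the same chromosome from 31815464 to 31817946, also has a single exon. Its counts were 5 and 2 without inhibitor, compared with 189 and 56 in the CPI-455 libraries, or 0.237 and 0.0916 CPM against 21.3 and 11.1 CPM. Both inhibitor libraries were higher, but the vehicle level rests on a handful of fragments. The log2 fold change of 6.58 (SE 0.56) is therefore loosely set, and it lay between 6.004 and 7.30 when single libraries were left out, with 7.30 reached without vehicle replicate 1. HSPA1A and HSPA1B encode nearly the same sequence, and fragments that fit both equally well were not counted. Of the 100-base windows along the HSPA1A exon, 69.9% occur without a mismatch in the HSPA1B exon, and 68.8% of those of HSPA1B occur in HSPA1A. The read length is not given in the sources used here, and windows of 50 bases gave 72.6% and 71.4%. At 100 bases this leaves 718 windows particular to HSPA1A and 756 particular to HSPA1B. With similar lengths of particular sequence, the count of HSPA1A per kilobase was 0.00205 ± 0.00114 (SD, n = 2) of that of HSPA1B in the vehicle libraries and 0.00333 ± 0.00169 (SD, n = 2) in the CPI-455 libraries. These ratios overlapped between the groups. The counts of the 2 genes summed gave a log2 fold change of 5.98 (SE 0.13). Nearly all of the summed counts were those of HSPA1B, so the sum had to follow that gene. Without the fragments common to both, the level of each gene and the change of the pair remain uncertain.

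HSPA6 encodes the HSP70B′ protein, an HSP70 of humans that is known to be nearly silent without stress. The gene has 1 exon and lies on chromosome 1 from 161524540 to 161526910. It had 28 and 29 counts in the vehicle libraries, against 123 and 92 under CPI-455, that is 1.33 and 1.33 CPM against 13.8 and 18.2 CPM. The log2 fold change was 3.58 (SE 0.33), an 11.9-fold difference. HSPA7, a close copy of HSPA6 on the same chromosome arm, had 3 and 2 counts in vehicle-treated cells and 8 and 0 in cells given CPI-455 and was not tested. HSPA1B and HSPA6, which passed the filter in the vehicle libraries alone, had log2 fold changes of 5.98 and 3.58, and that of HSPA1A rests on its CPI-455 libraries. The 3 inducible genes share a structure of 1 exon block. Of the other protein-coding genes tested with 1 exon block, 336 in all, 20.8% were called higher and 34.5% lower, and of the 12991 with 3 or more blocks 15.4% were called higher and 23.8% lower.

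HSPA8 encodes HSC70, the cognate chaperone that folds new proteins and uncoats clathrin vesicles. It lies on the reverse strand of chromosome 11 from 123057489 to 123063230, with 9 exon blocks. Its counts were 11900 and 12935 without inhibitor, compared with 28915 and 17817 in the CPI-455 libraries. Expression was 563 and 592 CPM in the vehicle libraries, against 3252 and 3533 CPM under CPI-455. HSPA8 thus had the highest CPM of the members without the inhibitor, and its CPM was higher still with it. The log2 fold change was 2.55 (SE 0.11), or 5.87-fold. Among the constitutive genes HSPA8 was the only one that stood higher. HSPA8 hosts the small nucleolar RNA gene SNORD14E in an intron. SNORD14E had 4 and 0 counts in vehicle-treated cells and 834 and 622 in cells given CPI-455. Unspliced HSPA8 fragments there could be counted for SNORD14E too, which was not tested. SNORD14C and SNORD14D overlap annotated HSPA8 exons over their whole lengths of 88 and 87 bases. Fragments that matched several genes were dropped, so both had to have 0 counts in every library. Their expression cannot be read from these counts.

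Of the other constitutive genes, HSPA2 was lower by more than 2-fold, and HSPA1L and HSPA14 had negative log2 fold changes below 2-fold. HSPA2, known as a testis-enriched HSP70 needed for sperm formation, is on chromosome 14 from 64535905 to 64546173. It had 7.72 and 8.84 CPM without inhibitor, compared with 1.35 and 2.78 CPM in the CPI-455 libraries, on 12 and 14 counts. The log2 fold change was -2.09 (SE 0.41), a 4.27-fold lower level. HSPA1L, also best known from testis, has a reverse-strand span on chromosome 6 from 31809619 to 31815065, which ends 399 bases before that of HSPA1A. Its values were 3.46 and 3.07 CPM in the vehicle libraries, against 2.02 and 1.19 CPM under CPI-455, where it had 18 and 6 counts. Its log2 fold change of -0.96 (SE 0.49) was opposite in sign to that of HSPA1A, although the promoter windows of the pair overlap. HSPA14, which joins the J-domain protein DNAJC2 at the ribosome to receive nascent chains, is on chromosome 10 from 14838164 to 14871741. It had 94.9 and 94.2 CPM in vehicle-treated cells and 49.7 and 55.7 CPM in cells given CPI-455, and its log2 fold change was -0.85 (SE 0.13). The groups were well apart for HSPA14, and the difference was near 2-fold, at -1.04 with library totals alone and -0.59 with a trend on exon length and GC taken out.

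The HSP110 genes, whose proteins act as exchange factors for HSP70, had log2 fold changes between -0.57 and 0.61. HSPH1, which encodes the stress-responsive HSP105, lies on chromosome 13 from 31134974 to 31162388. It had 108 and 121 CPM without inhibitor, compared with 163 and 186 CPM in the CPI-455 libraries, with a log2 fold change of 0.61 (SE 0.12). HSPA4, the APG-2 chaperone that helps HSP70 to take apart aggregates, on chromosome 5 from 133051962 to 133106449, had 137 and 160 CPM in the vehicle libraries, against 116 and 126 CPM under CPI-455. Its log2 fold change of -0.29 (SE 0.13) came to 0.01 once a trend with exon length and GC was taken out, so no direction can be given for HSPA4. HSPA4L, a relative of HSPA4, on chromosome 4 from 127781821 to 127840733, had 61.7 and 67.9 CPM in vehicle-treated cells and 45.0 and 42.4 CPM in cells given CPI-455, with a log2 fold change of -0.57 (SE 0.14). The annotated exons of HSPA4L share 719 bases with 2 other genes on the opposite strand, and fragments there were left out. With the same trend taken out, HSPH1 was at 1.03 (SE 0.10), past 2-fold, and HSPA4L at -0.17 (SE 0.14). Within each library the count per kilobase of HSPH1 was 0.487 and 0.464 of that of HSPA4 without inhibitor, compared with 0.864 and 0.908 in the CPI-455 libraries, a ratio on which scaling between libraries has no influence.

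**Figure D2:**
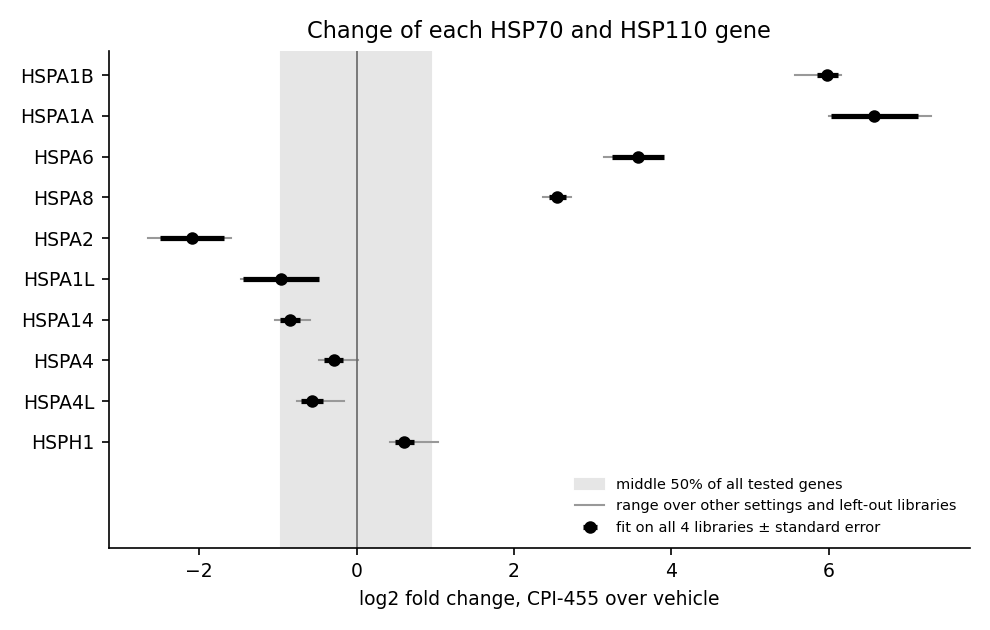
Log2 fold change of CPI-455 over vehicle for each gene, as points with the standard error (thick bars, n = 2 per group) and the range over other processing settings and left-out libraries (thin lines). The gray band is the middle 50% of all 17600 tested genes, from -0.96 to 0.94. The inducible genes and HSPA8 lie to the right of the band, HSPA2 to its left, HSPA1L and HSPA14 at or near its lower edge, and the 3 HSP110 genes within it.

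Levels were compared between genes as CPM per kilobase of exon. With vehicle HSPA8 had the highest counted level, with 119 ± 4.21 CPM per kilobase (SD, n = 2). HSPA1B followed with 31.5 ± 2.63 and HSPA4 with 28.8 ± 3.17, and the values of these neighbors overlapped. Next were HSPA14 with 19.6 ± 0.0946, HSPH1 with 13.7 ± 1.04 and HSPA4L with 5.58 ± 0.373 CPM per kilobase. HSPA2 (1.43 ± 0.137) and HSPA1L (1.28 ± 0.108) overlapped, and HSPA6 (0.560 ± 0.000667) and HSPA1A (0.0661 ± 0.0413) were lowest. With CPI-455 the counted level of HSPA1B was highest, at 1993 ± 141 CPM per kilobase, above HSPA8 at 700 ± 41.0. HSPA4 (23.5 ± 1.36) and HSPH1 (20.8 ± 1.95) followed, with values of 22.5 and 24.5 against 19.5 and 22.2 that did not overlap but lay close together. HSPA14 had 10.9 ± 0.883 CPM per kilobase. HSPA6 (6.76 ± 1.32) and HSPA1A (6.52 ± 2.89) could not be told apart, and HSPA4L had 3.76 ± 0.155. HSPA1L (0.632 ± 0.232) and HSPA2 (0.357 ± 0.175) were lowest and overlapped. Levels of HSPA1A and HSPA1B may be understated on this scale, since fragments placed equally well in both genes gave no counts. Whether HSPA1B lay below HSPA8 with vehicle can therefore not be told, nor can the rank of HSPA1A. How far such a loss of fragments holds for other members was not examined. Among them are HSPA6, with its close copy HSPA7, and HSPA8, which shares 175 exon bases with SNORD14C and SNORD14D.

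The make-up of the family within a library does not depend on how libraries are scaled to each other. As a share of the counts per kilobase of the 10 genes, HSPA8 made up 53.8% ± 0.431 with vehicle and 25.3% ± 0.207 with CPI-455 (SD, n = 2). HSPA1B made up 14.25% ± 1.57 with vehicle and 72.0% ± 0.298 with CPI-455. HSPA4 went from 13.0% ± 1.08 to 0.850% ± 0.00746 and HSPA14 from 8.86% ± 0.285 to 0.395% ± 0.0055. A lower share is not a lower level, since a share also falls when other members rise. The share of HSPH1 went from 6.15% ± 0.299 to 0.753% ± 0.0201, although its CPM was higher with CPI-455. HSPA6 kept its share, at 0.253% ± 0.0066 and 0.244% ± 0.0313, with overlapping replicates. The ratio of HSPA1A and HSPA1B together to HSPA8 was 0.288 and 0.243 in the vehicle libraries, against 2.84 and 2.88 under CPI-455, a mean ratio 10.8 times higher. The shares and this ratio make no allowance for the sequence that HSPA1A and HSPA1B have in common, so the level of the pair beside HSPA8 may be understated in every library, and whether it lay below HSPA8 with vehicle cannot be told.

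**Figure D3:**
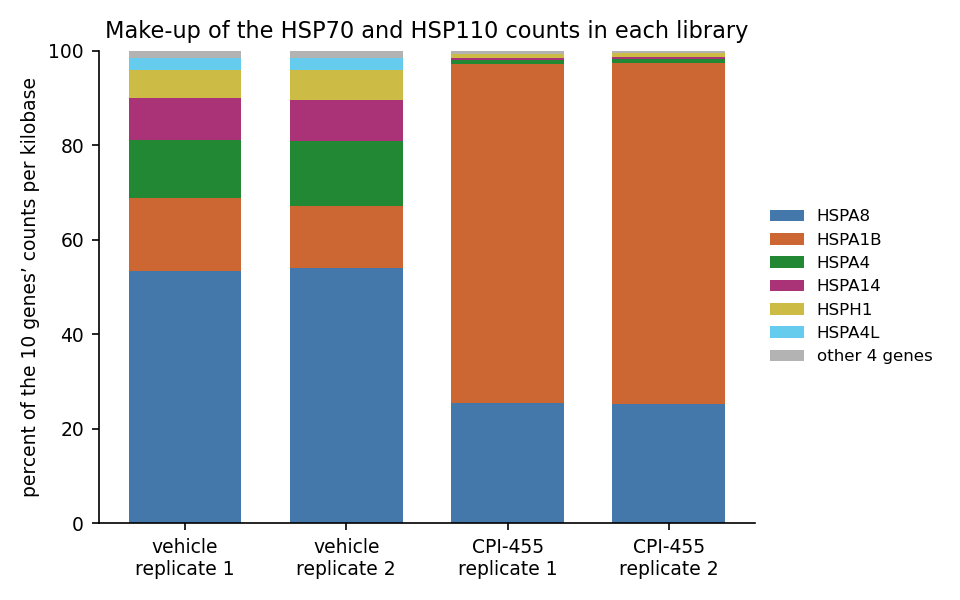
Share of each gene in the summed counts per kilobase of the 10 HSP70 and HSP110 genes, as stacked bars that add to 100% in each of the 4 libraries. HSPA8 is the largest part with vehicle (53.45% and 54.1%) and HSPA1B with CPI-455 (71.8% and 72.25%), and the remaining genes shrink to thin bands.

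The proteins that work with HSP70 were examined as 6 lists of 47 genes, of which 44 were tested. With CPI-455, 10 were called higher and 9 lower, beside 21.0% and 21.3% of all tested genes, and their median log2 fold change was 0.03, against -0.04 over all tested genes. Calls among these genes thus lay in both directions. The lists were chosen with earlier results of these data known. Their calls and FDR values come from the fit across all genes and are not independent tests of the lists.

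Of the J-domain partners, 3 of 9 tested genes were called higher and 1 lower. DNAJB1, the stress-inducible HSP40 that pairs with HSPA1A and HSPA8, rose from 168 and 162 CPM with vehicle to 2194 and 2542 CPM with CPI-455. Its log2 fold change was 3.84 (SE 0.12, FDR = 2.74e-07 by edgeR), the highest of the 44 genes. DNAJC2, the ribosomal partner of HSPA14, rose from 59.2 and 54.9 CPM to 291 and 352 CPM (log2 fold change 2.49, SE 0.13, FDR = 9.66e-07 by edgeR), while HSPA14 itself stood lower. DNAJC7, an HSP70 and HSP90 co-chaperone, rose with a log2 fold change of 1.10 (SE 0.12) and fell short of 2-fold with library totals alone, without a filter and without CPI-455 replicate 2 (0.92, 0.95 and 0.98). DNAJA1, a general cytosolic J-domain protein, fell by 1.12 on the log2 scale (SE 0.11) and was below 2-fold with upper-quartile scaling.

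None of the 10 nucleotide exchange factors was called higher, and 4 were called lower. GRPEL2 and GRPEL1, which serve the mitochondrial HSP70, had log2 fold changes of -2.13 (SE 0.13) and -1.24 (SE 0.20), and GRPEL1 was at -0.99 without CPI-455 replicate 2. BAG5, with 184 and 169 CPM in vehicle-treated cells and 50.5 and 30.5 CPM in cells given CPI-455, fell by 2.09 on the log2 scale (SE 0.20, FDR = 1.93e-05 by edgeR), and BAG4 fell by 1.70 (SE 0.13). BAG3, the stress-inducible exchange factor that links HSP70 to autophagy, had 46.1 and 52.6 CPM without inhibitor, compared with 68.3 and 57.5 CPM in the CPI-455 libraries, and was not called (log2 fold change 0.36, SE 0.15, FDR = 0.0604 by edgeR). Of 8 adaptors and tail-binding co-chaperones, STUB1, the ubiquitin ligase CHIP, was called higher (log2 fold change 1.42, SE 0.13, but 0.96 with the length and GC trend taken out), and FKBP5, an androgen-responsive immunophilin, was called lower (-1.53, SE 0.12). STIP1, which carries clients from HSP70 to HSP90, and ST13, which steadies the ADP-bound state, had log2 fold changes of 0.12 (SE 0.12) and 0.00018 (SE 0.11).

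Of the heat shock factors, HSF1, the main activator of inducible HSP70 genes, rose from 101 and 105 CPM with vehicle to 253 and 210 CPM with CPI-455 (log2 fold change 1.17, SE 0.13, FDR = 4.09e-05 by edgeR), a change just under 2-fold with library totals alone. HSF4, a factor best known from the lens, rose from 7.01 and 5.63 CPM to 62.4 and 54.7 CPM (log2 fold change 3.22, SE 0.19). HSF2 and HSBP1 were not called. Among HSP90 and other heat-inducible chaperones, 4 of 8 genes were called higher. HSPB1, the small heat shock protein HSP27, rose with a log2 fold change of 2.61 (SE 0.12, FDR = 5.84e-07 by edgeR), and HSP90AA1, the inducible HSP90, with 2.00 (SE 0.13). CRYAB and HSPE1 also rose, with log2 fold changes of 2.00 each (SE 0.40 and 0.15). HSPD1, which forms the mitochondrial chaperonin with HSPE1, had 0.07 (SE 0.12) and was not called. SERPINH1, the collagen chaperone HSP47, was called lower (-1.24, SE 0.14).

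Of the organelle and other HSP70 genes, 5 of 7 were tested, with none called higher and 2 called lower. HSPA13 and HYOU1, a microsomal and an endoplasmic reticulum family member, were called lower, with log2 fold changes of -2.99 (SE 0.15, FDR = 8.40e-07 by edgeR) and -2.51 (SE 0.17). HSPA5, the chaperone BiP of the endoplasmic reticulum, had 2030 and 2156 CPM in the vehicle libraries, against 3621 and 3322 CPM under CPI-455, and was below 2-fold (log2 fold change 0.73, SE 0.10). HSPA9, the mitochondrial mortalin, had a log2 fold change of -0.63 (SE 0.10). HSPA12A, an atypical HSP70, had a log2 fold change of 0.74 (SE 0.17) and was not called either.

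**Figure D4:**
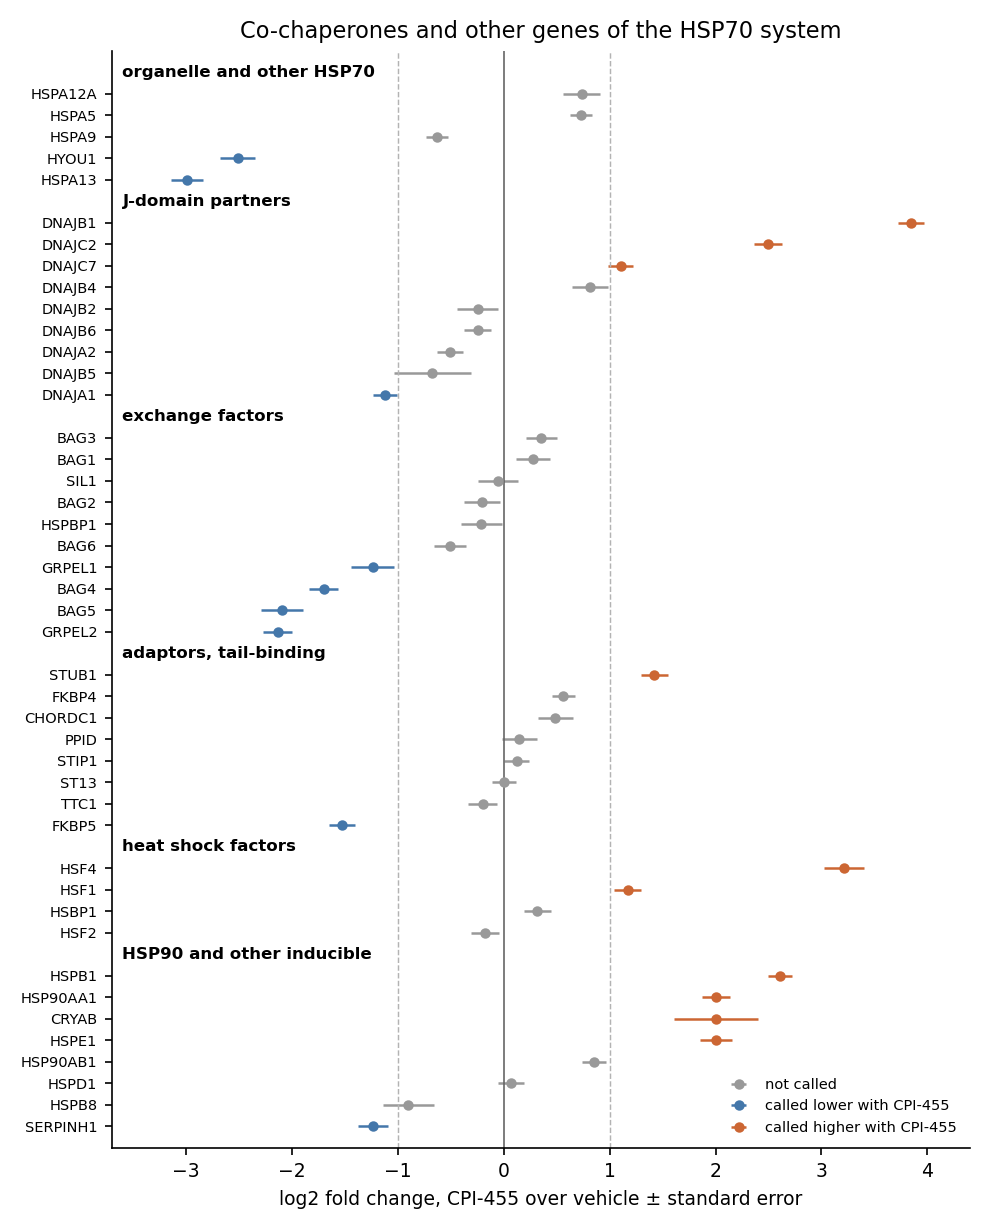
Log2 fold change of CPI-455 over vehicle with the standard error (n = 2 per group) for the 44 tested partner genes, by list and ordered by value. Dashed lines mark a 2-fold change, orange points the 10 genes called higher and blue points the 9 called lower. DNAJB1 lies farthest to the right (3.84) and HSPA13 farthest to the left (-2.99).

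Finally, the genes with the most similar profile over the 4 libraries were listed by the Euclidean distance of log2 CPM, each gene centered on its own mean. Closest to HSPA8 were the non-coding gene LINC01012 (distance 0.07), the pseudogene FAUP4 (0.09) and KCTD19 (0.10), with log2 fold changes of 2.55, 2.59 and 2.63. Closest to HSPA1B were the pseudogene RPL36AP4 (0.16), MALAT1 (0.21) and the Y RNA gene ENSG00000277634 (0.22), with fitted log2 fold changes of 8.06, 6.01 and 8.02. RPL36AP4 and the Y RNA gene had 0 counts with vehicle, so their distance and fold change depend on the added count, which was 0.5 counts at the mean library size for the distance. With 4 libraries in 2 groups, the distance follows mainly the difference between the groups. No other chaperone was among these 6 genes, and with so few genes listed nothing is read from that.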

How the data were processed

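RNA sequencing libraries of 4 LNCaP cultures were analysed, grouped and numbered by their labels. The authors trimmed reads with TrimGalore, aligned them to GRCh38 with STAR and deposited raw fragment counts per gene from featureCounts v1.5.0-p1 on Ensembl release 83. Per the file headers, counting ignored strand and by default dropped fragments that matched several places or genes, which affects HSPA1A and HSPA1B. The labels and the methods of the study differ in the final concentration of DMSO. Symbols were matched by Ensembl identifier, and 56509 of 60675 genes lie in the same place in GENCODE release 44.

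Counts were normalized with TMM and tested with edgeR 4.0.16 in R 4.3.3 (filterByExpr with a minimum of 10 counts, glmQLFit and glmQLFTest, no covariates, Benjamini-Hochberg FDR over 17600 genes). A call required an FDR below 0.05 and a 2-fold change, as in the study. The members, lists and alternatives were chosen with earlier results of these data known. The text names all members, the called partner genes of each list up to 3 in each direction, genes in a member's locus and the 3 nearest profiles of HSPA1B and HSPA8. Further partner genes were named after their values were seen. BAG4, BAG5, GRPEL1 and GRPEL2 are all named, since only 4 were called. One count was worth 0.0483 CPM in the deepest and 0.185 CPM in the shallowest library, and 3 counts, the detection floor, at most 0.555 CPM, for counting error only. The test was checked on simulated counts. Alternatives were other scalings and filters, DESeq2 1.42.0, a likelihood-ratio test, a replicate block, removal of a length and GC trend (mgcv 1.9.3), thinning to equal depth and leaving out single libraries.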

Additional observations from a re-analysis of the deposited data

How the results depend on the processing

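With 2 libraries per group each result rests on few replicates, and HSPA1A, HSPA1L and HSPA2 had under 20 counts in at least 1 library. Every member kept its direction under all alternatives except HSPA4, which was at 0.01 and 0.02 with the length and GC trend removed, without and with the replicate block. HSPA1B ranged from 5.58 to 6.16, HSPA6 from 3.14 to 3.75, HSPA8 from 2.36 to 2.73 and HSPH1 from 0.42 to 1.03, and HSPA1A and HSPA1L could not be tested with a minimum of 10 counts in every library. The median log2 fold change of the members, 0.16 with no change of setting, was 0.33 with upper-quartile scaling, -0.032 with library totals alone, 0.0033 without a filter, 0.20 with 10 counts in every library, 0.52 with the length and GC trend removed, 0.52 with that trend and the replicate block, 0.26 at equal depth and -0.29 with HSPA1A and HSPA1B summed, and 0.036 to 0.23 when single libraries were left out. It lies between 2 distant members, so it shifts with small changes. A left-out library leaves a lone sample that is assumed to vary like the other group.

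The number of genes called (7454) and of partner genes called (19) stayed within 1.5 times under all alternatives, with 18 to 20 partner genes. The share of called genes that were higher, 49.6%, was 58.1% with upper-quartile scaling and 40.7% with library totals alone, which moved the median of all genes by 0.18 and -0.19. Of 304 values of the 19 called partner genes, 8 fell below the call, all by size, in DNAJA1, DNAJC7, HSF1, STUB1 and GRPEL1, and none changed sign. Replicates carry the numbers 1 and 2 in each group, but nothing says that same-numbered cultures were grown together, and their deviations had a correlation of 0.04. With the replicate block 7167 genes and 19 partner genes were called, and the members' median was 0.16.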

Other observations

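Counts of other genes annotated at the chaperone loci also differed. ENSG00000279691, annotated in an intron of HSPA4 on the same strand, had 7 and 6 counts in vehicle-treated cells and 124 and 67 in cells given CPI-455. Unspliced HSPA4 fragments there would be counted for ENSG00000279691, so a separate transcript cannot be told from them. The antisense gene HSPA2-AS1, which lies across HSPA2 without sharing exon bases, had 25 and 15 counts without inhibitor, compared with 0 and 0 in the CPI-455 libraries, in libraries of lower depth. CDNF, which shares 36 exon bases with HSPA14 on the other strand, had 120 and 127 counts in the vehicle libraries, against 26 and 8 under CPI-455. Fragments in the bases shared by HSPA14 and CDNF matched both genes and were dropped. The counting did not use strand. A fragment of unspliced RNA in an intron was thus counted for a gene with an exon annotated there, on either strand. The source of such fragments cannot be told from the counts.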
